A study of Mus musculus with 35 samples.

Results

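The genes described here encode plasma membrane and lysosomal amino acid transporters of 7 solute carrier families, SLC1, SLC3, SLC6, SLC7, SLC36, SLC38 and SLC43, and were followed through the open chromatin of mouse hepatocytes. Members were all regions of the deposited table whose nearest gene belongs to one of these families and whose centre lies within 100 kb of that gene's transcription start site. This took 592 of 177904 regions, assigned to 63 genes. A further step to any distance would have given 619 regions. The largest families were SLC38 with 181 regions of 11 genes, SLC6 with 168 regions of 20 genes and SLC7 with 113 regions of 16 genes, followed by SLC1 (53 regions, 6 genes), SLC36 (31 regions, 5 genes), SLC3 (26 regions, 2 genes) and SLC43 (20 regions, 3 genes). Of the members, 6 regions carried the names of 3 opposite-strand genes, Slc7a6os, Slc6a19os and Slc36a1os. Gene names give the nearest start site, so a region may act on another gene.

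Open chromatin was measured by ATAC-seq, in which a transposase cuts accessible DNA, in hepatocyte nuclei from 35 mice, 1 library per animal. All animals, the controls included, carried CAG-Sun1/sfGFP and Albumin-Cre, which places a GFP tag on the nuclear envelope of cells that express albumin, and tagged nuclei were pulled down from the liver (INTACT). In the C26 cohort, on BALB/c, 4 mice received PBS, and carriers of C26 tumor cells were sampled at stages labelled pre-cachexia (4 mice) and cachexia (4 mice). In the 8025 cohort, on C57BL/6N, 3 mice received PBS (replicates 1, 2 and 4) and 4 mice had 8025 tumors and cachexia. Mice with NC26 tumors (BALB/c) or MC38 tumors (C57BL/6N) kept a stable weight and were compared with their own PBS-injected mice, n = 4 in each of these 4 groups. Cachexia was a body weight loss above 10%, and livers were taken at zeitgeber time 9. The labels give no weight loss or day for the pre-cachexia stage, and no age or sex for any group. Tumor line and cohort went together and cannot be told apart. Strain was shared by C26 and NC26 and by 8025 and MC38. Between C26 and 8025, strain and the series of library names differed along with the tumor line. Cohorts were therefore compared only through effects against their own PBS group.

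Amino acid transporters move single amino acids or exchange one for another across membranes, often driven by sodium or protons. In the liver, periportal hepatocytes take up alanine and other glucogenic amino acids for gluconeogenesis and urea synthesis, while pericentral hepatocytes take up glutamate for glutamine synthesis. Transcription of several of these carriers is induced through ATF4 when amino acids run short or the endoplasmic reticulum is stressed, and heavy chains of the SLC3 family carry SLC7 light chains to the cell surface.

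In 6 member genes, a region within 1 kb of a start site that passed the test in at least 1 cachexia model overlapped a promoter window with a RefSeq sequence (GRCm38.p6, the mm10 build of the files). These windows are shown because each lies within such a region, by at least 248 of its 250 bases. For Slc1a2, Slc3a1 and Slc6a13 that region is the promoter region described below. For the other 3 genes it is a neighbour that partly overlaps the one described below, centred at -90 bp for Slc38a7, -203 bp for Slc7a7 and -200 bp for Slc7a11. In 8025 cachexia these neighbours changed by -0.34 (adjusted p = 0.016), 1.03 (adjusted p = 0.0069) and 1.67 (adjusted p = 0.014) on the log2 scale in limma, and in C26 none of these 3 was called. The marked matches of Slc38a7 and Slc7a7 lie in the neighbour and outside the region described below. Each line gives the 250 bases before the start in the direction of transcription, with motif matches in capitals. The windows lie at chr2:102706188-102706437 on the plus strand (Slc1a2), chr8:95853492-95853741 on the minus strand (Slc38a7), chr17:85028097-85028346 on the plus strand (Slc3a1), chr6:121300038-121300287 on the plus strand (Slc6a13), chr3:50443614-50443863 on the minus strand (Slc7a11) and chr14:54417703-54417952 on the minus strand (Slc7a7).
Slc1a2: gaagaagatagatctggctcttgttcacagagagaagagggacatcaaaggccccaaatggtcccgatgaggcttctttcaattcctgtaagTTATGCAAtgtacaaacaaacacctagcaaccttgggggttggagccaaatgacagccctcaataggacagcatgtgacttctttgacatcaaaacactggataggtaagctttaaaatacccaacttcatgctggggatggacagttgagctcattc
Slc3a1: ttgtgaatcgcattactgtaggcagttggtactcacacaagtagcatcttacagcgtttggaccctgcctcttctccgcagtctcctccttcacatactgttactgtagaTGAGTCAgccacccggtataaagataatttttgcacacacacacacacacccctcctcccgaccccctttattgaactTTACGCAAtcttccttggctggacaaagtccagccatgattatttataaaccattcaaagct
Slc7a11: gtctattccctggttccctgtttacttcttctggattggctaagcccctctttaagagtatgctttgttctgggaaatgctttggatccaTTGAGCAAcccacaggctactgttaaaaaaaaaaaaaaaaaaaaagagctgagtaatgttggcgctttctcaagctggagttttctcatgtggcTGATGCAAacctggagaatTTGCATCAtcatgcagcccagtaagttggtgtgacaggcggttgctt
Slc7a7: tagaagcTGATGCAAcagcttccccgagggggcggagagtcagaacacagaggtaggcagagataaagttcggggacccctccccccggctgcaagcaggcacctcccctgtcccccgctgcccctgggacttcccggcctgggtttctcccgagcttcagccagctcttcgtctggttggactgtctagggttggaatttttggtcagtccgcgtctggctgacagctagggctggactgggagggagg
Slc38a7: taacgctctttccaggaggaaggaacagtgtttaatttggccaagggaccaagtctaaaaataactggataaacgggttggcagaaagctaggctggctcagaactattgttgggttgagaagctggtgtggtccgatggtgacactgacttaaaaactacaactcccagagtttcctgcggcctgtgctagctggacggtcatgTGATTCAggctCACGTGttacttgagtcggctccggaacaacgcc
Slc6a13: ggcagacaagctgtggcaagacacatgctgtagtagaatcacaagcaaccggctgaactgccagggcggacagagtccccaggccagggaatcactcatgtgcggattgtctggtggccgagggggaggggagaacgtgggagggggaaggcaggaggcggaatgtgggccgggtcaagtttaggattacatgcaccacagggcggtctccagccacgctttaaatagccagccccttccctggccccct
The motifs were searched on both strands. The composite element of C/EBP and ATF4 (TGATGNAA) was present at -66 and, in reverse, at -47 of Slc7a11 and at -243 of Slc7a7, counted from the start site. This element occurred in 3.45% of 32851 promoter windows of the same length in the RefSeq table and in 4 of 65 windows of member genes. The C/EBP motif (TTGCNNAA) stood at -158 of Slc1a2, -62 of Slc3a1 and -160 of Slc7a11 and occurred in 9.56% of all windows and 8 of 65 member windows. The AP-1 motif (TGANTCA) stood at -140 of Slc3a1 and -45 of Slc38a7 (6.75% of all windows, 7 of 65), and the E-box CACGTG at -34 of Slc38a7 (6.02% of all windows, 8 of 65). The STAT motif TTCCNGGAA was in 0.913% of all windows and in 0 of 65 member windows. None of the 5 motifs was found in the Slc6a13 window. No printed match overlapped another. A promoter sequence was at hand for 45 of the 63 genes.

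Values are tags in 400 bp around each region, scaled to 10 M tags per library, and are called scaled tags below. Libraries held 11.3 to 23.8 M tags, except 3.47 M in NC26 tumor replicate 1, and Spearman coefficients between replicates of a group were 0.836 to 0.944. Hepatocyte marker genes had a promoter region for 7 of 8 genes, with a summed signal of 701 to 1101 scaled tags in every library (Ttr had none). Serpina1a added little to these sums, with a median of 1.78 scaled tags, against medians of 87.7 (Apob) to 285 (Alb) for the others. The sums were 701 to 824 in C26 PBS and 830 to 939 in C26 cachexia, with 2 of 7 promoters higher. In 8025 they were 858 to 949 in PBS and 793 to 921 in cachexia, with 0 called. Macrophage markers had 1 region for 8 genes (0 to 9.62 scaled tags), endothelial markers 1 for 6 (4.15 to 15.1) and neutrophil markers 1 for 5 (1.41 to 12.2, with S100a8 higher in 8025 cachexia at 6.11 to 9.70 against 1.41 to 4.70). The defining markers Clec4f, Cd68, Csf1r, Pecam1, Stab2, S100a9, Cd3e and Ptprc had no promoter region. Stellate cell markers had 3 regions for 5 genes, with sums of 33.7 to 115 scaled tags and 1 marker higher and 1 lower in 8025 cachexia. Cholangiocyte markers (3 regions for 5 genes, Krt19 and Krt7 without one) summed to 40.1 to 64.7 scaled tags in C26 PBS against 70.1 to 84.7 in C26 cachexia, and to 61.0 to 82.5 in 8025 PBS against 92.6 to 123 in 8025 cachexia. Their part in the results below was not tested.

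Of the member regions, 96 lay within 1 kb of a start site (16.2%, against 18.4% of all regions), 140 between 1 and 10 kb and 356 beyond 10 kb (60.1%, against 48.6%). Introns held 50.8% of members and intergenic sequence 30.4%. Slc38a4, an alanine and cationic amino acid carrier of the liver, had the most regions (66), followed by the taurine transporter Slc6a6 (50) and the glutamine carrier Slc38a2 (47). Slc38a1, Slc38a2 and Slc38a4 are neighbours and together held 130 regions over 558.9 kb of chromosome 15. A number of member regions overlap, and the 592 regions formed 450 clusters of overlapping regions, so neighbouring regions are not independent. In the 15 PBS libraries the promoters with the highest median signal were those of Slc1a4 (297 scaled tags), Slc38a10 (183), Slc38a3 (172), Slc38a7 (156), Slc38a9 (132), Slc6a12 (131), Slc7a2 (117) and Slc6a6 (116), while the promoter of the cystine carrier Slc7a11 had 3.49.

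A region was called where its adjusted p was below 0.05 in limma over all 177233 tested regions, and log2 changes are given on the scale of log2(scaled tags + 1). All 592 members were tested. In C26 cachexia against PBS, 59 members were higher and 24 lower, 14.0% of members against 14.2% of all regions called (7.43% higher and 6.78% lower). In 8025 cachexia against PBS, 65 members were higher and 18 lower, again 14.0% of members against 12.3% of all regions (7.23% higher and 5.06% lower). Of all called regions, 58.8% were higher in 8025, and 69.1% when only library totals scaled the values. The share of members called was thus near the background in C26 and slightly above it in 8025, while higher calls took 9.97% and 11.0% of members and lower calls 4.05% and 3.04%. The median log2 change of members was 0.09 in C26 and 0.05 in 8025, against 0.00 over all regions in both models. A count test on recovered read ends, edgeR's quasi-likelihood test, called 87 members in C26 and 91 in 8025. Libraries of cachexia and PBS mice did not overlap at 112 of 592 members in C26 and 161 in 8025. The same count over all regions was not made. Full separation is easier to reach with 3 PBS libraries, as in 8025, than with 4, so the 2 counts cannot be compared. The largest rises and falls named below were chosen among such regions, so their lack of overlap follows from the choice. In bulk nuclei, more open nuclei and more opening per nucleus cannot be told apart.

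Between models the calls overlapped. Both models called 38 members, 30 higher and 8 lower, and none in opposite directions, which was 45.8% of the members called in each model. Over all regions the shared calls made up 41.1% of C26 calls and 47.5% of 8025 calls. Log2 changes of the 2 models correlated across members with a Pearson coefficient of 0.62, and with 0.62 across all regions, a description without a test because regions share libraries. Of the 45 members called in C26 alone, 38 had the same sign in 8025, and of the 45 called in 8025 alone, 42 had the same sign in C26. The 38 shared regions belonged to 17 genes, with 6 each at Slc1a2 and Slc7a2. No member passed the test of the difference between the C26 and 8025 cachexia effects (0 calls, 42 members at unadjusted p below 0.05, with 1 call each in edgeR and DESeq2), where 0.101% of all regions were called, 0.0271% higher and 0.0739% lower in C26.

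**Figure D1:**
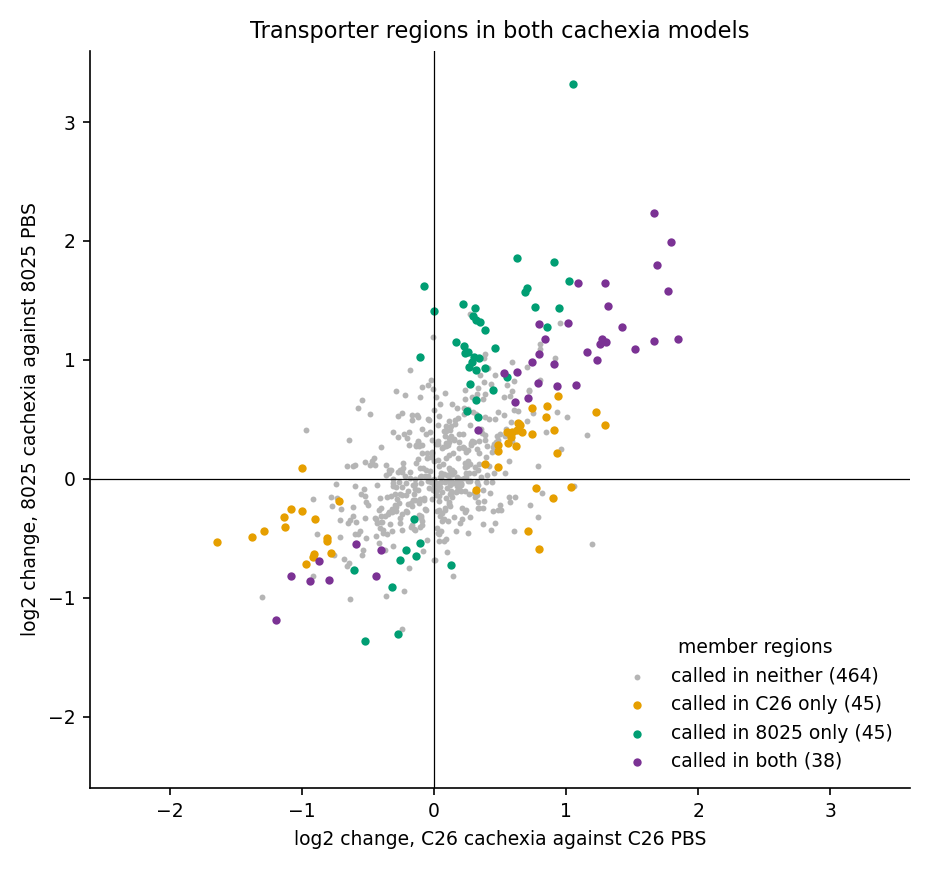
Log2 change of each member region in C26 cachexia against C26 PBS (x axis) and in 8025 cachexia against 8025 PBS (y axis), coloured by the model or models in which it was called. The 38 regions called in both models lie in the upper right and lower left, 30 higher and 8 lower.

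Calls were unevenly spread over the genes, which differ in their number of regions, and overlapping regions were counted separately. In C26, 13 genes had only higher calls, 11 only lower calls, 3 both and 36 none, and in 8025 the counts were 15, 5, 6 and 37. The genes with the most higher calls in C26 were Slc6a6 (8 of 50 regions), Slc7a2 (8 of 25), Slc1a2 (6 of 13) and Slc38a2 (6 of 47). Slc1a2 encodes the glial and pericentral glutamate transporter GLT-1. At Slc38a2, 12.8% of regions were called in C26, all higher, against 14.2% of all regions called and 7.43% higher. In 8025 the most higher calls were at Slc1a2 (9 of 13 regions), Slc1a4 (9 of 20) and Slc7a2 (8 of 25). In each of these genes but Slc1a4, which had no call in C26, higher calls occurred in both models, and 30 of the 63 genes had no called region in either.

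**Figure D2:**
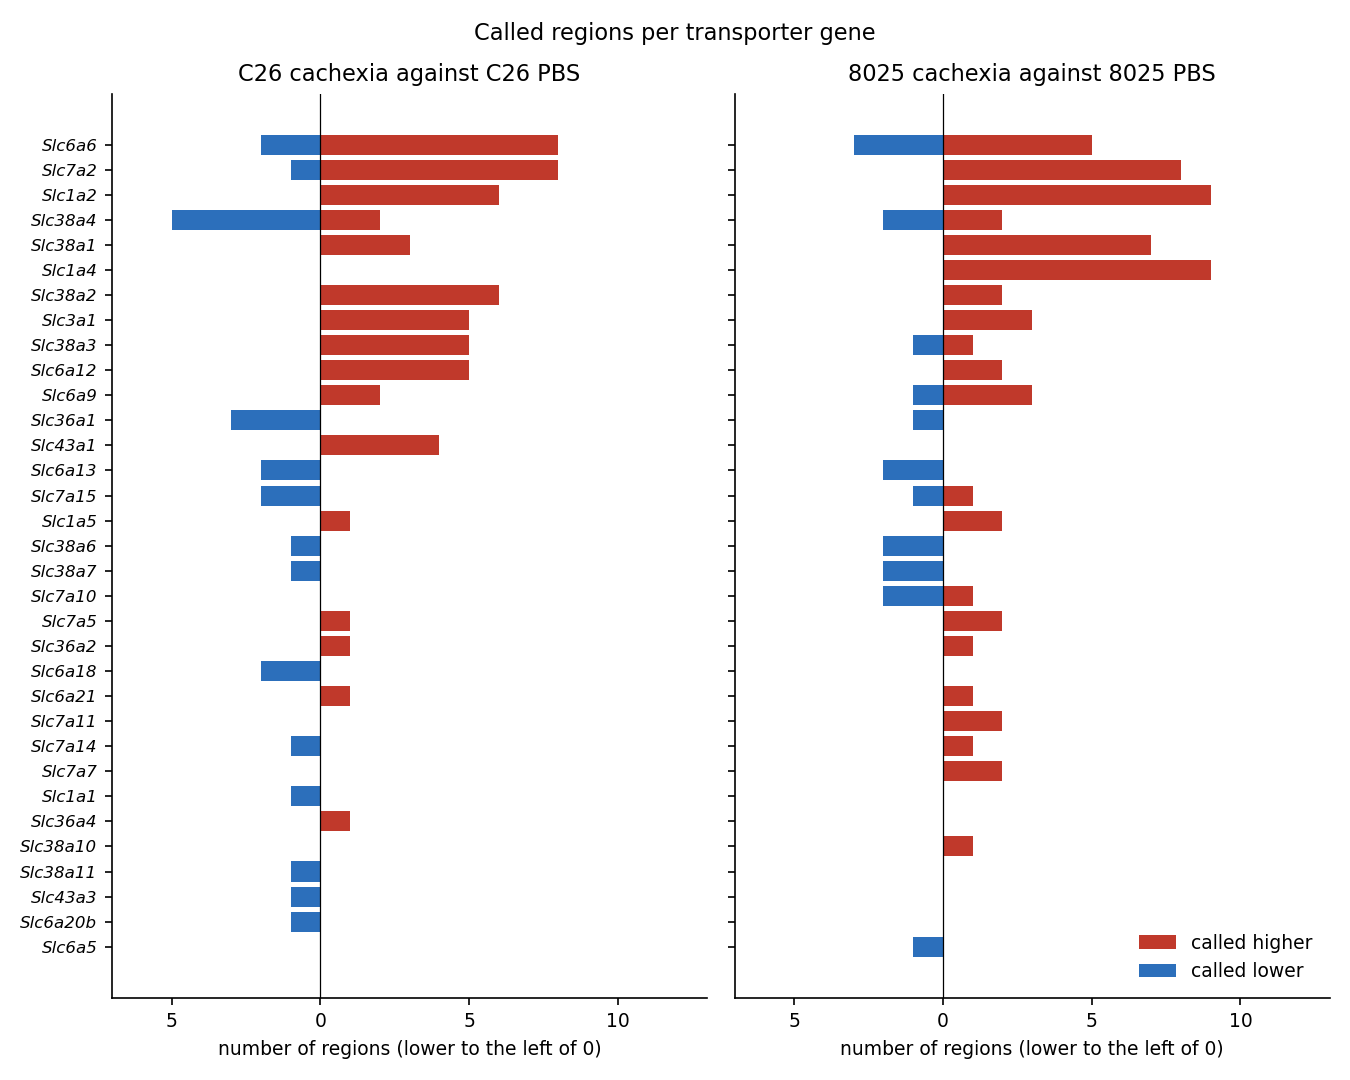
Number of member regions called higher (right of 0) and lower (left of 0) per gene in C26 and in 8025 cachexia against PBS. Slc7a2 and Slc1a2 carry mainly higher calls in both models, and Slc1a4 carries 9 higher calls in 8025 and 0 in C26.

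Carriers of cationic amino acids were led by Slc7a2, the arginine and lysine carrier CAT-2 that hepatocytes express strongly. Of the 44 regions of 6 cationic carriers, 8 were higher and 1 lower in C26, and 10 were higher and 0 lower in 8025. The called shares were 20.5% and 22.7%, against 14.2% and 12.3% of all regions, and all C26 calls were at Slc7a2. An intronic region 14.7 kb below the Slc7a2 start (chr8:40876855-40877255) held 81.4, 46.9, 69.7 and 40.6 scaled tags in C26 PBS, 58.1, 35.2, 103 and 61.2 in pre-cachexia and 153, 149, 142 and 135 in cachexia. All 4 cachexia libraries lay above all PBS and pre-cachexia libraries. In the 8025 cohort the same region held 26.8, 24 and 30.6 scaled tags in PBS and 80.7, 65.3, 90.8 and 68.3 in cachexia, again without overlap. It rose by 1.32 (SE 0.24, adjusted p = 0.00023) on the log2 scale in C26 and by 1.45 (SE 0.26, adjusted p = 0.00024) in 8025.

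With weight-stable tumors the 14.7 kb region held 84.8, 69.6, 87.8 and 63.9 scaled tags in NC26 tumor mice against 82.5, 71.7, 85.2 and 83.0 in their PBS mice. MC38 tumor mice had 65.8, 31.9, 38.5 and 72.8 against 38.7, 40.6, 60.4 and 45.6. In both weight-stable cohorts tumor and PBS libraries overlapped. The C26 effect exceeded the NC26 effect by 1.40 (SE 0.34, adjusted p = 0.023), a call lost without C26 PBS replicate 2 or 4 or NC26 PBS replicate 1 (adjusted p at most 0.0565). The 8025 effect exceeded the MC38 effect by 1.34 (SE 0.35, adjusted p = 0.044), a call lost in 13 of 25 alternatives (adjusted p up to 0.14).

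Further down the Slc7a2 gene, a region at 25.6 kb (chr8:40887724-40888124) held 97.0, 62.9, 79.4 and 50.6 scaled tags in C26 PBS and 121, 115, 145 and 155 in cachexia. In 8025 it held 54.8, 53.9 and 79.0 in PBS and 133, 122, 119 and 112 in cachexia. Neither pair of groups overlapped. The rise was 0.91 (SE 0.16, adjusted p = 4.1e-05) in C26 and 0.97 (SE 0.17, adjusted p = 6.6e-05) in 8025, and it exceeded the NC26 effect by 0.90 (SE 0.22, adjusted p = 0.019) and the MC38 effect by 1.05 (SE 0.23, adjusted p = 0.0086). In all, 5 Slc7a2 regions between 14.5 and 25.6 kb, in 3 clusters of overlapping regions, were called in both models and in both differences from weight-stable tumors. These regions were chosen for description after their values were seen. At the other end of the gene, the region -818 bp from the Slc7a2 start fell by 0.90 (SE 0.28, adjusted p = 0.021) in C26, a call lost without C26 PBS replicate 1 or 4 or C26 cachexia replicate 1 (adjusted p up to 0.1), and in 8025 its change was -0.34 without a call. Slc7a1, the more widely expressed cationic carrier CAT-1, had no called promoter in either model.

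**Figure D3:**
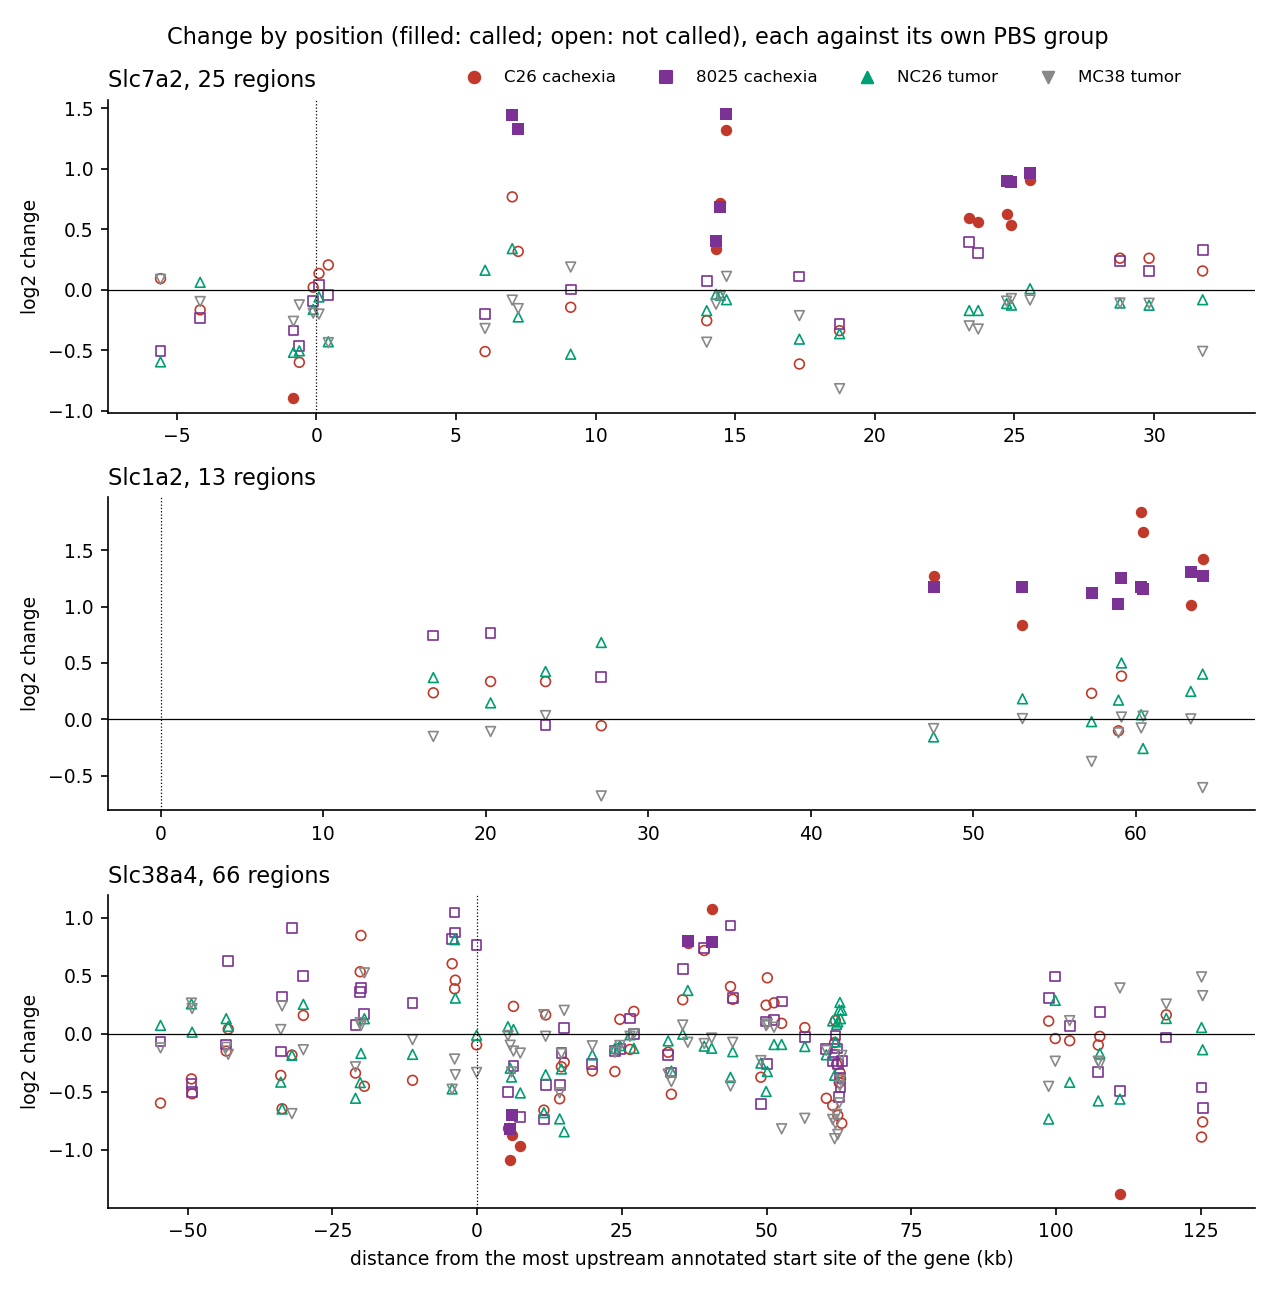
Log2 change of every member region at Slc7a2, Slc1a2 and Slc38a4 against its distance in kb from the gene's most upstream start site, in the 4 tumor groups each against its own PBS group, with called regions filled. At Slc7a2 the called rises of both cachexia models sit in the gene body, and no weight-stable change was called there.

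Among carriers of glutamate, aspartate and cystine, calls concentrated at Slc1a2. The 34 regions of 6 acidic carriers included 6 higher and 1 lower call in C26 and 11 higher and 0 lower in 8025. That was 20.6% and 32.4% of them, against 14.2% and 12.3% of all regions. Slc1a2 has 2 start sites 47.7 kb apart, and all its called regions lie around the downstream start, whose window is printed above. The region -200 bp from it (chr2:102706038-102706438) held 11.8, 17.5, 11.3 and 12.6 scaled tags in C26 PBS, 27.1, 22.2, 12.3 and 16 in pre-cachexia and 25, 27.6, 35.9 and 48.5 in cachexia. Cachexia and PBS libraries were fully separated, and pre-cachexia libraries overlapped both. In 8025 the values were 22.9, 20.1 and 12.2 in PBS and 43.9, 42.5, 34.1 and 46.6 in cachexia, also separated. This promoter rose by 1.27 (SE 0.25, adjusted p = 0.00024) in C26 and by 1.18 (SE 0.27, adjusted p = 0.002) in 8025.

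An intronic Slc1a2 region at 12.7 kb from the same start (chr2:102718920-102719320) held 10.8, 14.0, 3.13 and 4.36 scaled tags in C26 PBS and 15.6, 30.0, 28.2 and 25.2 in cachexia, which did not overlap. NC26 PBS and tumor mice overlapped at this region, with 9.81, 9.81, 15.6 and 12.0 against 10.8, 12.8, 7.56 and 7.85. The C26 rise of 1.66 (SE 0.27, adjusted p = 1.3e-05) exceeded the NC26 effect by 1.92 (SE 0.38, adjusted p = 0.003), and this difference kept its call in all 26 alternatives. In 8025 the region rose by 1.16 (adjusted p = 0.0048). A region at 9.5 kb behaved otherwise in C26, where its change was 0.23 without a call (adjusted p = 0.65), while in 8025 PBS it held 16.3, 12.7 and 13.6 and in cachexia 31.8, 31.3, 30.1 and 34.4 scaled tags, a rise of 1.12 (adjusted p = 0.0057). The difference between the 2 models at that region was not called.

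Because Slc1a2 is a gene of pericentral hepatocytes, markers of the lobule zones are given beside it. Pericentral markers, with promoter regions for 7 of 7 genes, had 0 higher and 2 lower promoters in each model, and their sums ranged from 459 to 516 scaled tags in C26 PBS and 438 to 485 in C26 cachexia, and from 406 to 514 in 8025 PBS and 377 to 478 in 8025 cachexia. Periportal markers (6 of 6 genes) had 4 higher promoters in C26, with sums of 748 to 886 in PBS and 980 to 1060 in cachexia, and 1 higher and 1 lower in 8025. Their part in the transporter results was not tested.

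Slc7a11 encodes the cystine and glutamate exchanger xCT, a target of ATF4 and NRF2. Its promoter region at -42 bp (chr3:50443455-50443855) held 1.96, 4.94 and 5.17 scaled tags in 8025 PBS and 14.3, 15.2, 19.0 and 15.3 in cachexia, without overlap, a rise of 1.82 (SE 0.46, adjusted p = 0.0048). Without 8025 PBS replicate 1 the adjusted p was 0.0617. In C26 the values were 1.54, 4.08, 1.88 and 3.49 in PBS and 5.38, 2.84, 12.5 and 5.18 in cachexia, which overlapped, with a change of 0.91 and no call (adjusted p = 0.16). A region 34.2 kb below the start of Slc1a1, the neuronal and epithelial glutamate carrier, held 14.9, 19.8, 18.1 and 19.6 scaled tags in C26 PBS and 9.14, 19.5, 6.27 and 4.44 in cachexia. It fell by 1.00 (adjusted p = 0.017), although replicate 2 of cachexia lay among the PBS libraries.

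Carriers of glutamine and alanine were the largest group. Of the 174 regions of 8 such genes, 17 were higher and 5 lower in C26, and 23 were higher and 3 lower in 8025. The called shares were 12.6% and 14.9%, near the 14.2% and 12.3% of all regions. Slc38a3 encodes SNAT3, the sodium-coupled glutamine carrier of hepatocytes. A region 13.7 kb below its start (chr9:107653473-107653873) held 46.2, 40.5, 43.8 and 31 scaled tags in C26 PBS, 69.3, 62.9, 87.4 and 45.8 in pre-cachexia and 123, 90.9, 137 and 120 in cachexia. The 3 stages stood in this order, and pre-cachexia replicate 4 lay just below the highest PBS library. In 8025 the region held 52.2, 53.9 and 59.0 in PBS and 118, 117, 116 and 121 in cachexia, without overlap.

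This Slc38a3 region rose by 1.52 (SE 0.17, adjusted p = 1.8e-08) in C26 and by 1.09 (SE 0.19, adjusted p = 4.9e-05) in 8025. It was also the one member called with a weight-stable tumor, where NC26 PBS mice had 52.6, 35.9, 44.4 and 46.4 and NC26 tumor mice 83.5, 72.8, 72.4 and 83.5 scaled tags, a rise of 0.80 (SE 0.17, adjusted p = 0.029). The NC26 call was lost in 9 of 20 alternatives, among them leaving out NC26 PBS replicate 2, 3 or 4 or NC26 tumor replicate 1 or 4 (adjusted p up to 0.216 over all alternatives), and NC26 tumor replicate 1 was the shallow library. The C26 effect exceeded the NC26 effect by 0.72 without a call (adjusted p = 0.1). Other Slc38a3 regions moved less. The promoter at -60 bp rose by 0.32 (adjusted p = 0.029) in C26, a call lost in 6 of 18 alternatives (adjusted p up to 0.127), among them leaving out C26 PBS replicate 1 or 4 or cachexia replicate 1, 3 or 4. In 8025, a region -149 bp from a second Slc38a3 start fell by 0.72 (adjusted p = 0.0033).

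Slc38a2 encodes SNAT2, whose transcription is induced by amino acid shortage. A region 18.9 kb upstream of its start (chr15:96718436-96718836) held 14.6, 26.8, 23.8 and 26.6 scaled tags in C26 PBS and 48.9, 51.1, 54.3 and 65.5 in cachexia. In 8025 the values were 18.9, 14.1 and 19.7 in PBS and 46.1, 48.4, 29.7 and 35.8 in cachexia. Neither model showed overlap, while NC26 PBS (32.1, 24.2, 28.8 and 16.6) and tumor mice (26.9, 14.9, 16.3 and 24.7) did. The rise was 1.25 (SE 0.26, adjusted p = 0.00073) in C26 and 1.13 (SE 0.28, adjusted p = 0.0056) in 8025, where leaving out PBS replicate 2 gave an adjusted p of 0.0541. The C26 effect exceeded the NC26 effect by 1.54 (SE 0.37, adjusted p = 0.018), a call lost with library totals only and without NC26 PBS replicate 1 (adjusted p at most 0.0572). In total Slc38a2 had 6 higher calls of 47 regions in C26 and 2 in 8025.

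Slc38a1 and Slc38a4 lie beside Slc38a2. At Slc38a1, the glutamine carrier SNAT1, a region at 20.1 kb held 6.68, 7.86, 8.75 and 12.6 scaled tags in C26 PBS, 16.1, 24.3, 21.6 and 18.1 in C26 cachexia, 6.2, 9.17 and 6.58 in 8025 PBS and 23, 24.9, 28.5 and 22.8 in 8025 cachexia. Both models were fully separated from PBS, with rises of 1.09 (SE 0.25, adjusted p = 0.0014) and 1.65 (SE 0.27, adjusted p = 1.9e-05). NC26 and MC38 tumors changed it by 0.82 (adjusted p = 0.18) and 0.75 (adjusted p = 0.5) without a call. Slc38a1 had 3 higher calls in C26, 7 in 8025 and no region within 1 kb of its start.

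Of the 66 Slc38a4 regions, 2 were higher and 5 lower in C26, and 2 were higher and 2 lower in 8025. The called shares were 10.6% and 6.06%, below the 14.2% and 12.3% of all regions. The gene has 3 start sites, the outer ones 35.6 kb apart. A region 4.9 kb below the most downstream start (chr15:97015242-97015642) held 68.3, 64.3, 86.9 and 58.4 scaled tags in C26 PBS and 153, 137, 154 and 141 in cachexia, and 81.6, 88.5 and 71.0 in 8025 PBS and 146, 142, 127 and 143 in cachexia. It rose by 1.08 (SE 0.17, adjusted p = 1.2e-05) and 0.79 (SE 0.18, adjusted p = 0.0021), without overlap in either model. A region 5.7 kb below the first start (chr15:97050041-97050441) went the other way, from 104, 77.7, 68.5 and 98.1 in C26 PBS to 46, 26.4, 40.8 and 51.8 in cachexia and from 75.4, 93.4 and 70.3 in 8025 PBS to 52.7, 48.9, 35.3 and 42.5. It fell by 1.08 (SE 0.19, adjusted p = 9.2e-05) in C26 and by 0.82 (SE 0.21, adjusted p = 0.006) in 8025, where leaving out PBS replicate 2 gave an adjusted p of 0.0593.

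Slc1a4 and Slc1a5 encode the neutral amino acid exchangers ASCT1 and ASCT2. Slc1a4 had 9 higher calls in 8025, all upstream of the gene between 13.8 and 72.3 kb from its start, and 0 in C26. A region 37.9 kb upstream (chr11:20370456-20370856) held 20.2, 18.0 and 18.3 scaled tags in 8025 PBS and 40.6, 47.7, 44.4 and 40 in cachexia, fully separated, a rise of 1.15 (SE 0.26, adjusted p = 0.002). In C26 its change was 0.16 without a call (adjusted p = 0.74). The Slc1a5 promoter at -57 bp held 24.5, 28.2 and 31 in 8025 PBS and 49.7, 55.8, 51.4 and 40.5 in cachexia, a rise of 0.80 (SE 0.19, adjusted p = 0.0031), and its C26 change was 0.27 without a call (adjusted p = 0.35). No difference between the models was called at these genes.

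Heavy chains of heteromeric transporters had 26 regions. Called were 5 in C26 (19.2%, against 14.2% of all regions) and 3 in 8025 (11.5%, against 12.3%), all higher. Slc3a1, the heavy chain rBAT of the cystine and basic amino acid exchanger, held all of them, and Slc3a2, the heavy chain 4F2hc, had none. A region 3.0 kb upstream of Slc3a1 (chr17:85025103-85025503) held 44.7, 36.1, 48.5 and 33.6 scaled tags in C26 PBS, 74.2, 114, 90.6 and 111 in cachexia, 40.5, 37.4 and 46.8 in 8025 PBS and 105, 91.2, 61.9 and 83.3 in cachexia. Both models were above PBS without overlap, with rises of 1.24 (SE 0.19, adjusted p = 1.2e-05) and 1.00 (SE 0.21, adjusted p = 0.00086). The Slc3a1 promoter at -48 bp rose by 0.91 (SE 0.21, adjusted p = 0.0023) in C26, from 27.5, 13.7, 22.5 and 21.8 to 43.3, 45, 25.8 and 49.6, where cachexia replicate 3 lay below the highest PBS library. In 8025 its change was 0.41 (adjusted p = 0.28).

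Of the 42 regions of 8 light chains, 1 was higher and 0 lower in C26 (2.38% called), and 7 were higher and 2 lower in 8025 (21.4%). Over all regions, 14.2% were called in C26 and 12.3% in 8025. Slc7a7 encodes y+LAT1, which exports cationic amino acids from cells, and its promoter at -4 bp (chr14:54417483-54417883) held 6.53, 7.05 and 11.0 scaled tags in 8025 PBS and 14.5, 18.5, 22.9 and 18.0 in cachexia. The groups did not overlap, and the rise was 1.10 (SE 0.28, adjusted p = 0.006), against a change of 0.46 without a call in C26 (adjusted p = 0.27). Slc7a5 encodes LAT1, the carrier of large neutral amino acids. An intronic region at 18.2 kb held 0.653, 0.705 and 0.470 scaled tags in 8025 PBS and 9.33, 21.4, 24 and 10.5 in cachexia, a rise of 3.32 (SE 0.55, adjusted p = 3e-05) from a level near 0, and in C26 its change was 1.06 without a call. A Slc7a5 region at 38.6 kb was called in both models, with rises of 1.16 (adjusted p = 0.0098) in C26 and 1.07 (adjusted p = 0.035) in 8025. The C26 call was lost with only the cohorts compared (adjusted p = 0.0587) and without C26 PBS replicate 4 (adjusted p = 0.103). The Slc7a5 promoter was not called. At Slc7a10, a carrier of small neutral amino acids, a region 16.9 kb upstream fell by 0.60 (SE 0.11, adjusted p = 0.00011) in 8025, from 201, 183 and 181 to 136, 137, 90.6 and 139. This region lies between Slc7a10 and Cebpa.

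**Figure D4:**
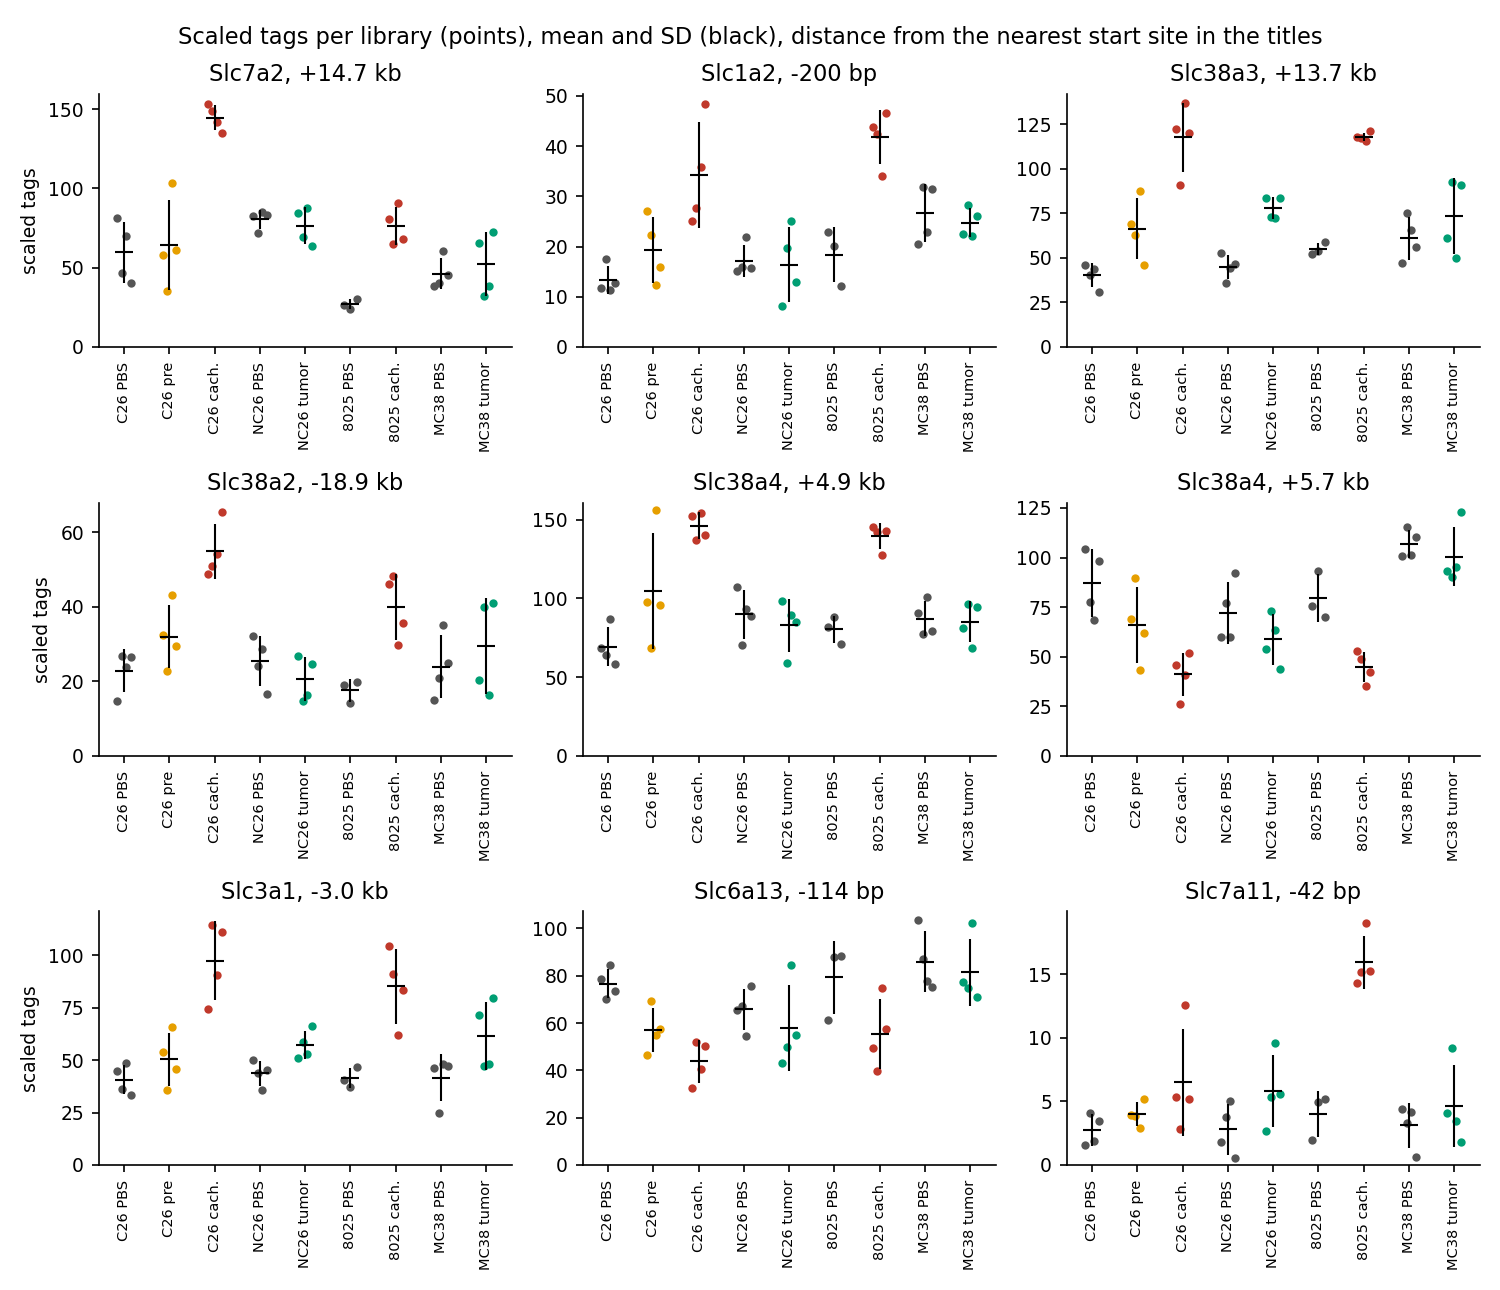
Scaled tags per library at 9 member regions in the 9 groups, with the mean and SD of each group. At Slc7a2, Slc1a2, Slc38a3, Slc38a2 and the rising Slc38a4 region both cachexia groups lie above their own PBS groups without overlap, and the falling Slc38a4 region lies below. Lack of overlap was a condition for the named rises and falls.

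In the SLC6 family the taurine transporter gene Slc6a6, with 50 regions, had the most calls. They were 8 higher and 2 lower in C26 and 5 higher and 3 lower in 8025 (20% and 16% of its regions). A region 63.4 kb upstream (chr6:91620453-91620853), chosen after its values were seen, held 4.88, 2.91, 3.75 and 3.49 scaled tags in C26 PBS and 10.2, 13, 24.7 and 16.6 in cachexia. In 8025 it held 6.86, 9.17 and 5.88 in PBS and 36.2, 29.7, 25 and 37.2 in cachexia. Both models were fully separated, with rises of 1.80 (SE 0.32, adjusted p = 5.2e-05) and 1.99 (SE 0.34, adjusted p = 4.4e-05), and the C26 effect exceeded the NC26 effect by 2.07 (SE 0.45, adjusted p = 0.0067). Closer to the gene, a region 4.1 kb upstream fell by 0.82 (adjusted p = 0.00049) in 8025 and by 0.44 (adjusted p = 0.047) in C26, where the call was lost when any 1 library of the 2 groups was left out (adjusted p up to 0.267). Within the gene, a region at 52.6 kb rose by 1.03 (adjusted p = 0.0055) in C26, from 19.0, 15.1, 13.1 and 24 to 37.9, 30.4, 51.2 and 30.3, and changed by -0.07 in 8025 (adjusted p = 0.92).

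Slc6a12 and Slc6a13 encode the betaine and GABA carriers BGT1 and GAT2 and adjoin each other on chromosome 6, and regions named for them were called in opposite directions. Slc6a12 had 5 higher and 0 lower calls in C26 and 2 higher in 8025. Its region 4.4 kb upstream held 14.4, 7.86, 14.1 and 7.85 scaled tags in C26 PBS and 23.4, 28, 27.2 and 31.8 in cachexia, without overlap, a rise of 1.29 (SE 0.26, adjusted p = 0.00041), and its 8025 change was 0.45 (adjusted p = 0.35). That region is annotated to a gene end and carries the Slc6a12 name through the nearest start. The Slc6a12 promoter at -57 bp changed by -0.02 in C26 and -0.01 in 8025, without a call. The Slc6a13 promoter at -114 bp (chr6:121299974-121300374) held 78.6, 70.1, 84.4 and 73.7 in C26 PBS and 32.5, 51.9, 40.8 and 50.3 in cachexia, and fell by 0.81 (SE 0.18, adjusted p = 0.001). In 8025 it held 61.4, 88.1 and 88.4 in PBS and 49.4, 39.9, 75.0 and 57.5 in cachexia, which overlapped, with a change of -0.53 (adjusted p = 0.064). Slc6a9, the glycine carrier GLYT1, rose at 2.8 kb by 0.80 (adjusted p = 0.034) in C26 and by 1.30 (adjusted p = 0.0013) in 8025. SLC6 carriers whose main substrates are not protein amino acids had 110 regions, 13 higher and 4 lower in C26 and 7 higher and 5 lower in 8025. The called shares were 15.5% and 10.9%, against 14.2% and 12.3% of all regions.

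Lysosomal and proton-coupled carriers had 2 higher and 4 lower calls of 44 regions in C26 and 1 higher and 3 lower in 8025. That was 13.6% and 9.09% of them, against 14.2% and 12.3% of all regions. Slc36a1 encodes PAT1, a proton-coupled exporter of small amino acids from lysosomes. Its region at 394 bp held 18.5, 13.7, 16.6 and 12.6 scaled tags in C26 PBS and 11.3, 6.49, 8.01 and 5.55 in cachexia, without overlap, and fell by 0.91 (SE 0.24, adjusted p = 0.006), against a change of -0.65 in 8025 (adjusted p = 0.092). The Slc36a1 promoter at -12 bp was not called in C26. Its mean there went the other way, from 46.1 scaled tags in PBS to 58.6 in cachexia. Slc38a7 encodes a lysosomal glutamine and asparagine carrier. A region -317 bp from its start (chr8:95853608-95854008) held 120, 119, 114 and 108 in C26 PBS and 91.6, 97.4, 66.5 and 96.6 in cachexia, and 131, 120 and 121 in 8025 PBS and 93.5, 71.7, 81.6 and 80.5 in cachexia. Both models lay below PBS without overlap. It fell by 0.60 (SE 0.14, adjusted p = 0.003) in 8025, lost with library totals only (adjusted p = 0.0951), and by 0.40 (adjusted p = 0.033) in C26, a call lost with library totals only and without C26 PBS replicate 1, 2 or 3 or cachexia replicate 3 (adjusted p up to 0.28). The Slc38a7 region closest to the start, at -90 bp, was not called in C26, with means of 148 scaled tags in PBS and 133 in cachexia. In 8025, where it was called lower, the means were 160 and 127. In the opposite direction, Slc36a2, a proton-coupled glycine and proline carrier, rose at 6.0 kb by 1.30 (adjusted p = 0.00083) in C26 and by 1.65 (adjusted p = 0.00013) in 8025.

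SLC43 carriers, which facilitate the passage of large neutral amino acids, gave 4 higher and 1 lower call of 20 regions in C26 and 0 in 8025. That was 25% of them in C26, against 14.2% of all regions, and 0 in 8025, against 12.3%. The Slc43a1 promoter at -15 bp held 12.8, 8.15, 17.8 and 15.7 scaled tags in C26 PBS, 28.5, 19.1, 31.7 and 22.6 in pre-cachexia and 30.4, 22.7, 32 and 20.7 in cachexia. Both tumor stages lay above PBS without overlap, but only the rise of 0.94 (SE 0.26, adjusted p = 0.0085) in cachexia was called, and leaving out C26 PBS replicate 2 gave an adjusted p of 0.0662. The pre-cachexia change was 0.88 (adjusted p = 0.07). In 8025 the promoter changed by 0.70 (adjusted p = 0.092). Slc43a3, a relative that carries purine bases, fell by 1.28 (adjusted p = 0.0017) at 2.1 kb upstream, from 11.0, 19.2, 15.6 and 17.0 in C26 PBS to 10.2, 4.87, 6.97 and 2.96 in cachexia. At Slc7a15, a region 23.9 kb upstream fell by 1.19 in each model (adjusted p = 0.00021 and 0.00071).

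At the promoters of the best known transporters most changes were not called. Their called share was still above that of all regions within 1 kb in both models (10.4% in C26 and 6.97% in 8025). Of a panel of 23 transporter genes, 22 had a region within 1 kb of the start. In C26, 4 of these promoters rose (Slc1a2, Slc3a1, Slc43a1 and Slc38a3) and that of Slc6a13 fell, and in 8025, 4 rose (Slc1a2, Slc7a11, Slc7a7 and Slc1a5), leaving 18 without a call. The Slc1a2 promoter was the single panel promoter called in both models. Over all members, 11 of 96 regions within 1 kb (11.5%) were called in C26, 27 of 140 between 1 and 10 kb (19.3%) and 45 of 356 beyond (12.6%), against 10.4%, 14.3% and 14.6% of all regions at these distances. In 8025, 14 of 96 (14.6%), 21 of 140 (15%) and 48 of 356 (13.5%) were called, against 6.97%, 13.1% and 13.4% of all regions. The higher share between 1 and 10 kb in C26 was not seen there, and the share within 1 kb was above that of all regions. No test of these shares was made.

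**Figure D5:**
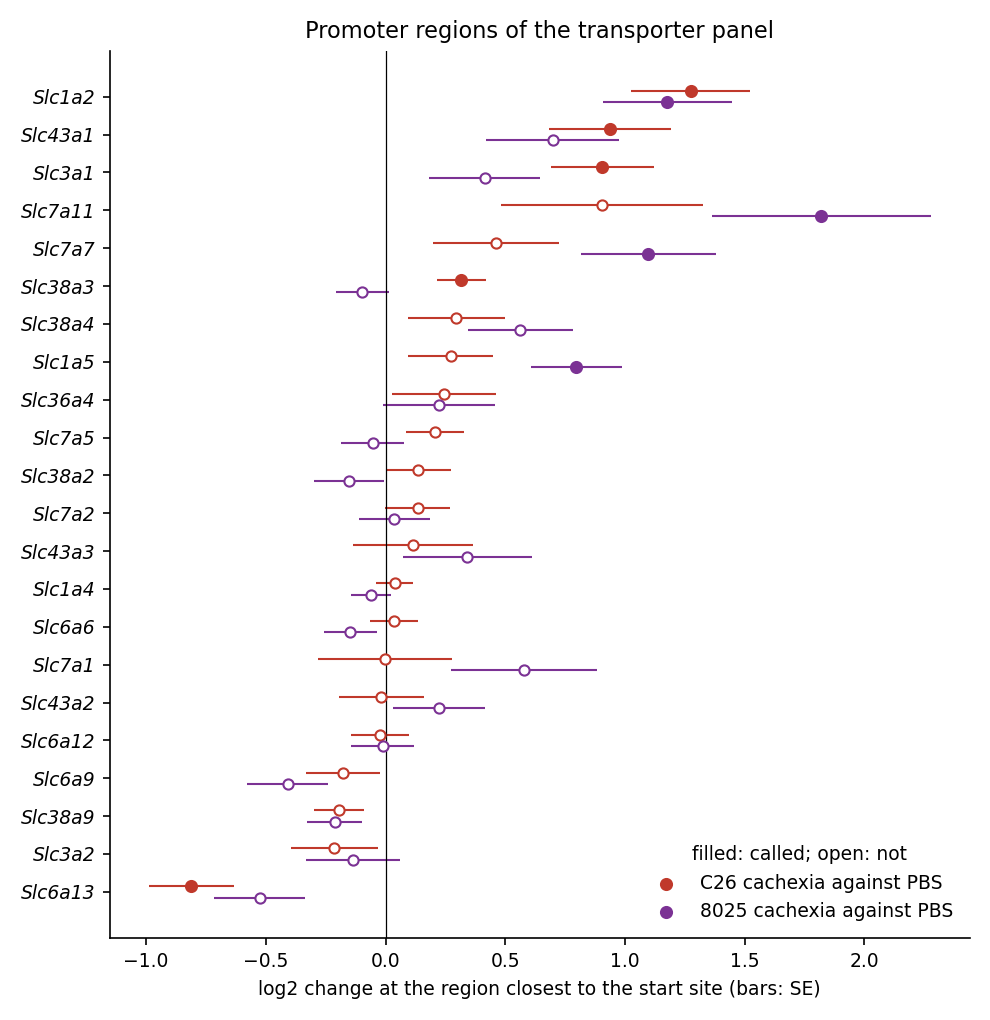
Log2 change with SE at the promoter regions of the 22 panel genes in C26 and in 8025 cachexia against PBS, with called changes filled. Slc1a2 is called in both models, and most other promoters lie near 0.

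Before cachexia, few members were called, as over all regions. In pre-cachexia against C26 PBS, 6 members were higher and 0 lower, 1.01% of members against 1.31% of all regions (1.04% higher and 0.263% lower). They were the Slc38a3 region at 13.7 kb (0.68, adjusted p = 0.029), a Slc38a1 region at 41.9 kb (1.31, adjusted p = 0.039), the Slc36a4 region at -686 bp (1.65, adjusted p = 0.03) and 3 Slc6a6 regions in the gene body, at 32.3, 45.3 and 52.6 kb. At 52.6 kb, Slc6a6 held 42.5, 41.9, 31.4 and 31.3 scaled tags in pre-cachexia, above all PBS libraries, a rise of 1.02 (adjusted p = 0.037), about as high as in cachexia. That call was lost in 6 of 18 alternatives, when C26 PBS replicate 1, 2 or 3 or pre-cachexia replicate 1, 2 or 4 was left out (adjusted p up to 0.149). The count of 6 fell to 1 without C26 PBS replicate 1 or 3 or pre-cachexia replicate 1, and to 2 without C26 PBS replicate 2 or pre-cachexia replicate 2. At unadjusted p below 0.05, 64 members passed in limma (10.8%, against 11.9% of all regions), and DESeq2 called 18 members. The few calls do not show that the effect was small.

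From pre-cachexia to cachexia, 31 members were higher and 11 lower (5.42% of all regions called, 2.22% higher and 3.2% lower). With library totals only, the split was 14 higher and 10 lower. The Slc7a2 region at 14.7 kb rose by 1.25 (adjusted p = 0.0014), the Slc38a3 region at 13.7 kb by 0.84 (adjusted p = 0.0016) and the Slc3a1 region at 3.0 kb upstream by 0.95 (adjusted p = 0.0016). The steepest fall was at Slc7a14, which encodes a lysosomal cationic carrier found mainly in nervous tissue, 58.1 kb upstream. There pre-cachexia mice had 17.6, 27.3, 24 and 34.8 scaled tags and cachexia mice 11.3, 3.25, 4.88 and 1.48, a fall of 2.32 (SE 0.32, adjusted p = 8.8e-06), with 9.50, 21, 18.8 and 14.8 in PBS. The count of 42 calls fell to 19 without pre-cachexia replicate 2, 20 without pre-cachexia replicate 4, 26 without cachexia replicate 2 or 3 and 18 without cachexia replicate 4.

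With weight-stable tumors, 1 member was higher and 0 lower in NC26 (0.178% of all regions called, 0.137% higher and 0.0406% lower) and 0 were called in MC38 (0.0186% of all regions, 0.0181% higher and 0.000564% lower). The NC26 call was the Slc38a3 region described above. At unadjusted p below 0.05, 61 members in NC26 and 44 in MC38 passed in limma, and edgeR called 0 in both cohorts, with 38 and 43 at unadjusted p below 0.05. DESeq2 called 1 in NC26 and 0 in MC38. Few calls in a group do not show that its effect was smaller, so the cachexia effects were also tested against the weight-stable effects.

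The C26 cachexia effect differed from the NC26 tumor effect at 19 members, 16 higher and 3 lower (2.21% of all regions called, 1.2% higher and 1.02% lower), and the 8025 effect from the MC38 effect at 14, all higher (1.71% of all regions, 0.959% higher and 0.746% lower). The 16 higher differences lay at Slc7a2 (6 regions), Slc1a2 (3), Slc38a2 (2), Slc6a6 (2), Slc38a4, Slc43a1 and Slc6a9 (1 each), and the 3 lower at Slc1a1, Slc36a1 and Slc7a14. In 8025 against MC38 they lay at Slc7a2 (5), Slc1a2, Slc38a1 and Slc6a6 (2 each), Slc1a4, Slc7a14 and Slc7a5 (1 each). Slc38a1 at 89.8 kb, with 13.1, 13.7 and 16 scaled tags in 8025 PBS and 25.8, 28, 35.5 and 33.9 in cachexia, had a difference of 1.33 (SE 0.30, adjusted p = 0.011) that kept its call in all 25 alternatives. The rising Slc38a4 region exceeded the NC26 effect by 1.20 (SE 0.23, adjusted p = 0.0035). Both counts rest in part on single libraries. The first fell to 11 without C26 cachexia replicate 4, and the second to 8 and 4 without 8025 PBS replicate 1 and 2, to 9 without 8025 cachexia replicate 1 or 4 or MC38 PBS replicate 3, and to 7 without MC38 tumor replicate 3.

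Genes that sense amino acids and drive the response to their shortage were given beside the carriers. A list of 28 such gene names gave 196 regions of 25 genes within 100 kb. In C26, 21 were higher and 15 lower (10.7% and 7.65%, against 7.43% and 6.78% of all regions). In 8025, 13 were higher and 17 lower (6.63% and 8.67%, against 7.23% and 5.06% of all regions). In NC26 and MC38, 0 were called, against 0.178% and 0.0186% of all regions. Atf4, the transcription factor of the amino acid response, rose at 0.8 kb by 0.87 (adjusted p = 4.2e-05) in C26 and by 0.54 (adjusted p = 0.02) in 8025. Sesn2, a leucine sensor and ATF4 target, rose 3.6 kb upstream by 1.36 (adjusted p = 0.00019) and 1.40 (adjusted p = 0.00043). Rragc, a lysosomal GTPase of the mTORC1 pathway, fell at 73.6 kb by 0.68 in C26 and by 1.02 in 8025. A list of 10 transporter genes known as targets of the amino acid response had 129 regions, with median log2 changes of 0.24 in C26 and 0.28 in 8025. Called were 14 higher and 0 lower in C26 (10.9%, against 14.2% of all regions) and 20 higher and 1 lower in 8025 (16.3%, against 12.3%). Higher calls alone took 10.9% and 15.5% of the list, against 7.43% and 7.23% of all regions. Lower calls took 0% and 0.775%, against 6.78% and 5.06%. Carriers of amino acids and peptides from other families (140 regions of 10 genes) had 9 higher and 8 lower calls in C26 and 8 higher and 6 lower in 8025. The shares were 6.43% and 5.71% in C26 and 5.71% and 4.29% in 8025, each below that of all regions.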

How the data were processed

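The submitters' processing notes name mm10, BWA 0.7.5a-r405, SAMtools and HOMER; how duplicates were treated and how peaks were called is not given in the sources used here. Per the file headers, the deposited signal is a tag number in 400 bp around each merged peak, which the authors scaled so that a library has 10 M tags. Values times library totals gave whole read ends (0.5 tag each) for 100% of values within 0.05, so edgeR 4.0.16 and DESeq2 1.42.0 were run on them as alternatives.

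The main test was limma 3.58.1 (R 4.3.3; trend, robust empirical Bayes) on log2 of the TMM-scaled signal plus 1, with all 35 libraries, 9 groups and a library series term, since library names form 2 series (A: all C26, NC26 and MC38 replicates 1 and 2; B: all 8025, NC26 and MC38 replicates 3 and 4). filterByExpr (minimum count 10, minimum total 15) removed 671 regions and no member. P-values were adjusted by Benjamini-Hochberg over all 177233 tested regions in each comparison, and fold changes of low regions are understated on this scale. The design named the count test for raw counts and this test for scaled values. The spread behind each p-value is that between animals, since no animal gave more than 1 library. The script was tested on simulated data.

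Members and lists were chosen with earlier results of these data known. Named regions were the 10 largest called rises and falls of each cachexia model (4 and 4 in other comparisons) with 1 region per gene, signal at or above the median of 10.1 scaled tags and no overlap between the libraries of both groups (not applied to differences of effects), the promoters of the panel, and the 3 genes with most calls in each direction; other regions were chosen after their values were seen. Tables and figures were made with Python 3.11.15, pandas 2.3.3 and matplotlib 3.10.9. Alternatives were RLE factors, library totals, other pseudocounts and filters, a replicate block, subsets of cohorts or library series, 1 region per cluster of overlapping regions, and leaving out each library.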

Additional observations from a re-analysis of the deposited data

Results flagged for a closer look

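A single library stood apart from the other 3 of its group at 3 named regions, 4 of 84 groups of 4 libraries tested (4.76%), where about 1 in 20 is met by chance. At Slc6a6, 15.9 kb below the start, 8025 cachexia replicate 3 held 11.1 scaled tags and the others 8.23 to 8.55. At Slc7a10, 16.9 kb upstream, 8025 cachexia replicate 3 held 90.6 and the others 136 to 139. At Slc36a1, 11.9 kb below the start, C26 cachexia replicate 4 held 8.88 (others 16 to 16.6) and pre-cachexia replicate 2 held 50.8 (others 26.7 to 30.2).

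At 12 named regions the cachexia effect differed from the weight-stable tumor effect by a test of the difference itself. For C26 against NC26 the log2 differences were 1.40 at Slc7a2, 1.43 at the Slc1a2 promoter, 1.92 at Slc1a2 12.7 kb, 1.54 at Slc38a2, 2.32 at Slc6a9 4.9 kb, -1.64 at Slc1a1, -1.24 at Slc36a1 and -1.99 at Slc7a14. For 8025 against MC38 they were 1.34 at Slc7a2, 1.49 at Slc1a2 9.5 kb, 0.96 at Slc1a4 63.3 kb upstream and 1.33 at Slc38a1 89.8 kb. The calls at Slc1a2 12.7 kb and Slc38a1 held in every alternative run, and the other 10 were lost in at least 1. In C26 against NC26, losses occurred in 13 of 26 alternatives at Slc36a1 (adjusted p up to 0.0991), 9 at Slc6a9 (up to 0.0765), 4 at Slc1a1 (up to 0.0859), 3 each at Slc7a2 (up to 0.0565) and the Slc1a2 promoter (up to 0.0672), 2 at Slc38a2 (up to 0.0572) and 1 at Slc7a14, where the replicate block gave 0.0525. The libraries whose omission ended the call were C26 PBS replicates 1 and 3, C26 cachexia replicates 2, 3 and 4, NC26 PBS replicates 2 and 3 and NC26 tumor replicates 3 and 4 at Slc36a1. At Slc6a9 they were C26 PBS replicates 2 and 3, C26 cachexia replicates 3 and 4, NC26 PBS replicates 1 and 2 and NC26 tumor replicates 1 and 4. At Slc1a1 they were C26 cachexia replicates 3 and 4 and NC26 PBS replicate 2, at the Slc1a2 promoter C26 cachexia replicate 4 and NC26 tumor replicate 1, at Slc7a2 C26 PBS replicates 2 and 4 and NC26 PBS replicate 1, and at Slc38a2 NC26 PBS replicate 1. In 8025 against MC38, losses occurred in 13 of 25 alternatives at Slc7a2 (adjusted p up to 0.14), 12 at Slc1a4 (up to 0.145) and 7 at Slc1a2 9.5 kb (up to 0.105). At Slc1a2 9.5 kb each loss came from omitting 1 library, 8025 PBS replicate 2 or 4, 8025 cachexia replicate 1 or 4, MC38 PBS replicate 2 or MC38 tumor replicate 1 or 3. At Slc1a4 the call ended without any 1 of the 15 libraries other than 8025 PBS replicate 4, 8025 cachexia replicate 3, MC38 PBS replicate 2 and MC38 tumor replicate 4. At Slc7a2 it ended without any 1 other than 8025 PBS replicate 4, 8025 cachexia replicate 2 and MC38 tumor replicates 1 and 4. At Slc6a9, C26 cachexia mice held 57.2, 54, 64.8 and 67.7 scaled tags against 28, 23.3, 23.1 and 33.1 in PBS, while NC26 tumor replicates 1 and 4 held 5.39 and 5.05 and the other two 23.4 and 17.7.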

How the results depend on the processing

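No pairing of animals by replicate number was detected in the deviations of libraries from their group means. Correlations of same-numbered libraries ran from -0.064 to 0.070 in C26, -0.009 to 0.077 in NC26, -0.057 to 0.016 in 8025 and -0.155 to 0.023 in MC38. Differently numbered libraries gave -0.121 to 0.082, -0.099 to 0.102, -0.046 to 0.053 and -0.106 to 0.109 in the same order of cohorts. A shared order of preparation was not tested. With the replicate number as a block, the members called were 84 in C26 cachexia, 7 in pre-cachexia, 43 between the stages, 76 in 8025, 1 in NC26, 0 in MC38, 16 for C26 minus NC26, 14 for 8025 minus MC38 and 0 between the models. Leaving out 1 library gave 56 to 75 in C26, 1 to 5 in pre-cachexia, 18 to 48 between the stages, 59 to 77 in 8025, 0 to 3 in NC26, 0 in MC38, 11 to 24 and 4 to 21 for the 2 differences from weight-stable tumors and 0 to 1 between the models. The NC26 call was lost without NC26 PBS replicate 2, 3 or 4 or tumor replicate 1 (0 calls), and there were 3 without tumor replicate 2. The 1 call between models appeared without C26 cachexia replicate 4.

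Counts that moved by more than 1.5 times were these. With library totals only, 24 were called between the stages, 10 for C26 minus NC26 and 6 for 8025 minus MC38. With a pseudocount of 5, 23 were called for 8025 minus MC38 and 1 between the models. With only the cohorts compared, or with edgeR, NC26 had 0 and the models differed at 1, and NC26 had 0 within either library series. DESeq2 called 18 members in pre-cachexia, 28 for 8025 minus MC38 and 1 between the models. With 1 region per overlap cluster, which tests fewer members, the 2 differences had 12 and 9. The cause was otherwise not tested. With library totals only, the share of higher calls over all regions went from 79.9% to 92.2% in pre-cachexia, 41% to 31.5% between the stages, 77.1% to 92.2% in NC26 and 54.1% to 43.8% for C26 minus NC26, and the NC26 median of all regions from -0.04 to 0.07.

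Of 69 named calls, 36 kept their call under every alternative run and 33 lost it in at least 1. The changes of sign were at promoters without a call and near 0. In 8025, Slc6a12 was 0.00386 with RLE factors, 0.025 with library totals, 0.079 with the replicate block and 0.00579 in DESeq2, and with the block Slc38a3 was 0.00253 and Slc7a5 0.0312. In C26 with library totals, Slc6a12 was 0.0118, Slc43a2 0.0159 and Slc7a1 0.0322, and Slc7a1 was 0.00295 with a pseudocount of 0.5. Leaving out 1 library, Slc1a4 ran from -0.136 to 0.0178 in 8025 and -0.0093 to 0.0863 in C26, Slc36a4 from -0.105 to 0.411, Slc38a3 from -0.163 to 0.0025, Slc7a2 from -0.0502 to 0.0915, Slc7a5 from -0.16 to 0.0312 and Slc6a12 from -0.122 to 0.0881 in 8025, and Slc6a12 from -0.0625 to 0.0688, Slc43a2 from -0.126 to 0.073, Slc6a6 from -0.0798 to 0.106 and Slc7a1 from -0.331 to 0.241 in C26. Precision is limited by 3 or 4 animals a group and by signal near 1 tag at low regions.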
